A study of Mus musculus with 2 samples.

Results

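Many mammalian genes start transcription at more than one place, and the internal promoter regions described here are stretches of open chromatin at the starts that lie downstream. Overlapping peaks were merged into 20080 regions, and a region was kept where its strongest summit lay within 1 kb of the transcription start site (TSS) of a protein-coding transcript. That TSS had to lie over 2 kb downstream of the most upstream TSS of the same gene, and no TSS of another gene could lie within 1 kb of the summit. The rule gave 903 regions of 20080, or 4.50% (95% Wilson interval 4.22 to 4.79%), at 765 genes, which are 3.49% of the 21951 protein-coding genes. Of the 6605 genes with an internal TSS clear of other genes, 761 (11.5%) had a member. Within the peak list, the rule used signal only to pick the strongest summit, and no measure of sequence, strength or recovery. The list itself was already thresholded by irreproducible discovery rate, which weighs peak strength and agreement between the replicates. All 20080 regions had therefore passed such a filter before the rule was applied.

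The assay was ATAC-seq, which uses a transposase to tag DNA that is not covered by nucleosomes, and the cells were the mouse line G1E-ER4. The line is a clone of male erythroid progenitors, of strain C57BL/6J per the label, that lack their own GATA1 and carry a fusion of GATA1 with the hormone-binding part of the estrogen receptor, which estradiol switches on. The only group was G1E-ER4 exposed to 17Beta-estradiol at 10 nM for 24 h, as biological replicates 1 and 2 of 50000 cells each, and no library of untreated cells was analysed here. Comparisons are therefore between classes of region within these libraries, no test between conditions exists, and p-values are not given.

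A gene with alternative promoters can make transcripts that differ in their first exon. Where the first exon holds no start codon, only the untranslated leader changes, and where it does, or where coding exons are skipped, a protein with another N-terminus is made. Several red cell genes are known for this: Uros and Ank1 have an erythroid promoter beside others, and Nfe2 has alternative first exons. Promoters rich in CpG dinucleotides are typical of genes used in most cells, and tissue-restricted promoters are often poor in CpG. GATA1, the factor restored in these cells, binds sequences built on GATA, alone or with the TAL1 complex, while KLF1 binds CACCC boxes.

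The 120 bases before the TSS show how unlike one another these starts are. They are printed 5′ to 3′ on the gene's strand from the mm10 (GRCm38) assembly, ending 1 base before the TSS. Capitals mark a GATA motif, spelled AGATAA with its variant AGATAG, or else TGATAA with its variant TGATAG. They also mark the CCAAT box, whose letters are its name, a GC box spelled GGGCGG and a CACCC box spelled CACACCC. All were searched on both strands, so that a match on the other strand appears as its reverse complement. The first 3 pairs set an internal start beside the most upstream start of the same gene, and the other 5 sequences are internal starts of genes described below. Uros encodes uroporphyrinogen III synthase of heme synthesis, and its internal and upstream windows are chr7:133702617-133702736 and chr7:133710073-133710192, both on the minus strand.
Uros internal: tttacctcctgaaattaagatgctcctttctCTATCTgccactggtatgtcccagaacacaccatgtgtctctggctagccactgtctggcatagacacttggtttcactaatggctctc
Uros upstream: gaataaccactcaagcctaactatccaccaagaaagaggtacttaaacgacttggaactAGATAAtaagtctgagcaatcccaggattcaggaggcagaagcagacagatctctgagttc
Tcf3 encodes the E proteins E12 and E47, partners of TAL1, and its windows are chr10:80421861-80421980 and chr10:80433648-80433767, both on the minus strand.
Tcf3 internal: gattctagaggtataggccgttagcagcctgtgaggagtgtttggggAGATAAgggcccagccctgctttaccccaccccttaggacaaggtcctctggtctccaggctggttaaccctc
Tcf3 upstream: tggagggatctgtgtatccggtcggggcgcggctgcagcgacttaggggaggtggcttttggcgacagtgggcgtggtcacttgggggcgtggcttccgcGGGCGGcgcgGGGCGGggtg
Runx1 encodes a Runt-domain factor needed to form blood stem cells, and its proximal and distal promoters lie at chr16:92697329-92697448 and chr16:92826150-92826269, both on the minus strand.
Runx1 internal: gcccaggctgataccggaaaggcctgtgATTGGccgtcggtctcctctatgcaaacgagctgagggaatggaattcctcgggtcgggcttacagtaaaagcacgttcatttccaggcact
Runx1 upstream: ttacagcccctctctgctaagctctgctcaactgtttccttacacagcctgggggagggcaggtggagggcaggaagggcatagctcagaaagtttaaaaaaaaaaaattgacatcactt
The single internal starts are those of Nfe2 at chr15:103251688-103251807 (minus), Add2 at chr6:86077937-86078056 (plus), Tmcc2 at chr1:132367888-132368007 (minus), Nfyc at chr4:120815713-120815832 (minus) and Epb41 at chr4:132049092-132049211 (minus).
Nfe2 internal: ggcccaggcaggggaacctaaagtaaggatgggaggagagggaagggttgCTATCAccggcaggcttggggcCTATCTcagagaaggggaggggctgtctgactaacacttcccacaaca
Add2 internal: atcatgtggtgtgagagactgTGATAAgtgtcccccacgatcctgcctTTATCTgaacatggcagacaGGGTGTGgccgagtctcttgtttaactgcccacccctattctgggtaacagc
Tmcc2 internal: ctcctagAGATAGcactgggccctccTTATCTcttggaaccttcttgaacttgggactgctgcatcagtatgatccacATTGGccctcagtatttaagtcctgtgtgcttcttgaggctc
Nfyc internal: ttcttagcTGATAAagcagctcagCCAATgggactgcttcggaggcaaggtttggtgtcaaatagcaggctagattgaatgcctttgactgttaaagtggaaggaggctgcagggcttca
Epb41 internal: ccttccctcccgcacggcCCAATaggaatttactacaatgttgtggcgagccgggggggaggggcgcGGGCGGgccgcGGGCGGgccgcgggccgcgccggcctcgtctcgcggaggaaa

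The internal windows of Uros and Tcf3 held 1 GATA motif each, that of Nfe2 held 2, and that of Add2 held 2 with a CACCC box after the second. The upstream window of Uros held 1 GATA motif as well, so the motif did not set its starts apart. The upstream windows of Tcf3 and Runx1 held none. The internal window of Tmcc2 held 2 GATA motifs and a CCAAT box, while that of Epb41 held a CCAAT box and 2 GC boxes and no GATA motif. At Tcf3 the internal window had an observed over expected CpG ratio of 0.104 and the upstream window 1.10. At Runx1 the order was the other way round, with a CpG ratio of 0.774 before the internal start and 0 before the upstream start. These windows were picked after their values were seen and are examples only. Over all 861 distinct internal starts of the members, 12% of the 120-base windows held a GATA motif, beside 11.1% of 54365 starts of protein-coding transcripts in the annotation. A GC box was held by 45.6% of the internal starts and by 32.0% of all starts. A CCAAT box was held by 22.9% and 20.2% and a CACCC box by 4.18% and 3.69% of these windows. A match is a string of letters and does not show that a factor binds there.

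Marker genes fitted the label of the line. A region overlapped the 1 kb around a TSS in 13 of 14 erythroid markers, the exception being Alas2, and in 9 and 12 of the 14 in the own lists of replicates 1 and 2. Of 4 megakaryocyte markers Pf4 and Itga2b had a region, and none of the 5 myeloid, 3 mast cell, 4 lymphoid, 2 liver and 2 neuron markers did. Read depth is unknown, and the own lists held 14012 and 15564 regions in replicates 1 and 2.

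In the own lists of the replicates the internal class was of much the same size: 699 regions (4.99% of the list) in replicate 1 and 755 (4.85%) in replicate 2, a mean share of 4.92% ± 0.0973 (SD, n = 2). Of the 903 members, 631 were called in both own lists, or 69.9% (66.8 to 72.8%), beside 80.9% of the 5910 regions at the main start of a single gene, 41.4% of the 4781 intronic regions and 60.7% of all 20080 regions. Replicate 1 alone called a further 50 members and replicate 2 alone 86, and 136 were in neither own list; the conservative list was made from both libraries together. Intervals here cover counting error only. Recovery followed signal: in 4 equal groups of all regions by signal, from lowest to highest, 29.8%, 63.5%, 88.0% and 100% of members were called in both lists, and 28.7%, 68.3%, 91.4% and 99.0% of main promoter regions. In the longer ranked lists made before the threshold, 880 members (97.5%) had a summit in both replicates, beside 96.3% of all regions. For members the ratio of replicate 1 to replicate 2 signal had a median of 0.969, with 10th and 90th percentiles of 0.788 and 1.17. The median −log10 p of the members was 28.6 in replicate 1 and 31.9 in replicate 2, beside 23.7 and 27.3 over all regions.

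Internal promoter regions were open to a lesser degree than main promoters. Signal, the authors' deposited value per peak, had a median of 10.8 at internal promoter regions, 13.2 at single-gene main promoter regions, 9.17 at intronic regions and 10.7 over all regions. In the own lists the medians were 10.8 ± 0.235 at internal and 12.4 ± 0.0619 at main promoter regions (SD, n = 2), and the difference of internal minus main was -1.40 in replicate 1 and -1.82 in replicate 2, so it exceeded the spread between replicates. Internal regions were also narrower, with a median width of 518 bp against 594 bp at main promoters. Several summits were merged in 39.1% of internal regions and 46.2% of main promoter regions, beside 34.1% of all regions. Both classes had their summit just before the start, at a median of -43 bp for internal and -41 bp for main starts. The summit lay within 200 bp of the start in 615 internal regions (68.1%) and in 79.4% of main promoter regions.

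The distance from summit to start divided the members. The 615 with a summit within 200 bp had a median signal of 11.96, a median CpG ratio of 0.722, a GATA motif in 19.5% and were called in both replicates in 77.7%. The 142 with a summit beyond 200 and up to 500 bp away had a median signal of 9.44, a CpG ratio of 0.516, a GATA motif in 27.5% and were called in both in 57%. The 146 with a summit over 500 bp away had a median signal of 7.99, a CpG ratio of 0.332, a GATA motif in 45.2% and were called in both in 49.3%. For comparison, intronic regions had a median CpG ratio of 0.205 and a median signal of 9.17, which lies above that of the members with the most distant summits. Just inside that edge were regions of Gtf2ird1 (1000 bp, signal 7.93), Asap1 (999 bp, 6.30) and Tpra1 (998 bp, 6.10), and just outside were regions of Utrn (1004 bp, 8.10), Impact (1007 bp, 10.8) and Elovl6 (1010 bp, 18.9).

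Internal starts lay at a median of 12.1 kb downstream of the most upstream start. They lay 2 to 5 kb downstream in 209 members, 5 to 10 kb in 197, 10 to 50 kb in 343, 50 to 100 kb in 93 and over 100 kb in 61. The farthest were those of Cntnap2 (2185 kb, signal 9.24), a neuronal adhesion gene, Pde4d (1236 kb, signal 5.59), a cyclic AMP phosphodiesterase, and Fhit (709 kb, signal 9.70), which spans a fragile site. Of these only Fhit was called in both own lists. The starts least over 2 kb were those of Snrpc (2005 bp, signal 22.7), Lin54 (2006 bp, 7.38) and Gli1 (2015 bp, 14.3), and those that missed by least were of Ammecr1l (1978 bp, 7.64), Sfmbt2 (1940 bp, 5.83) and Nxt2 (1933 bp, 10.8).

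By annotation the internal start most often had a single exon before it. Exons were counted in a single transcript per gene that begins at the most upstream start. In 517 members 1 of its exons ended before the internal start (57.3%), in 203 there were 2 and in 182 there were 3 or more. Start codons were compared with those of all coding transcripts that begin within 2 kb of the most upstream start. Of the 720 members with an annotated start codon on both sides, 350 (48.6%) had a match, so that the matching annotated proteins begin alike. The other 370 had no match. In 111 members with an annotated start codon of their own, no coding transcript with one began within 2 kb of the most upstream start. Trim28, a corepressor of KRAB zinc finger proteins, was one of these, with 3 members around starts 25.04 kb downstream of the most upstream one. In 71 members the start carried the annotation's start-not-found tag, which marks a transcript whose true 5′ end is not known. These had a median signal of 8.71 and a GATA motif in 38.0%, and 38.0% were called in both replicates. Of all members, 539 had transcript support level 1, the best grade.

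Most genes had 1 member: 644 had 1, 105 had 2, 15 had 3 and Atxn7l1 had 4. Members are not independent samples, since 83 shared their nearest start with another member. The genes with 3 were Adgrg1, Atf7ip, Dennd6a, Foxn3, Gnas, Gpr146, Nfyc, Pacsin2, Plec, Rreb1, Slc3a2, Taok3, Tbc1d14, Tbcel and Trim28. Nfyc, a subunit of the CCAAT-binding factor NF-Y, had signals of 17.97, 14.1 and 12.5, all called in both replicates. Its strongest member (16.0 in replicate 1 and 15.6 in replicate 2), 15.9 kb downstream, was the one with a GATA motif and a CpG ratio of 0.207, and the others had CpG ratios of 0.899 and 0.934 and no GATA motif. Gnas, an imprinted gene for the stimulatory G protein with several first exons, had weak members of 6.67, 3.93 and 3.92, of which the first was called in both replicates. Plec, a cytolinker with many tissue-specific first exons, had 3 members of 4.90 to 7.53 and none called in both.

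The strongest internal regions stood mostly at genes with no region at the most upstream start. The 8 of largest signal were at Homez (26.3), a homeodomain gene, Zfp458 (25.7), a zinc finger gene, Atg14 (25.5), a subunit of the autophagy lipid kinase, Fetub (25.4), a fetuin, Osbpl9 (25.2), an oxysterol-binding protein, Arhgap29 (25.05), Gm6871 (24.8) and Scoc (24.7), a short coiled-coil protein gene. Homez had 24.1 in replicate 1 and 22.04 in replicate 2. All 8 were called in both own lists, and only Osbpl9 also had a region at its most upstream start, with a signal of 17.9. The weakest were at Kif13b (2.91), Tfap4 (2.43) and Ash2l (2.27), and none of these had a ranked-list summit inside the region in either replicate.

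For each gene the internal start was set beside the most upstream start. A region overlapped the 1 kb around the most upstream start in 380 of 903 members (42.1%, 38.9 to 45.3%), and in 34.3% and 37.4% in the own lists of replicates 1 and 2. In the other 523 the most upstream start was not called open. That start was taken over all annotated transcripts of the gene, coding or not, and need not be its usual promoter. With coding transcripts alone used to place it, 806 regions met the rule. Counted by gene, 2480 of all 6605 genes with an internal TSS clear of other genes (37.5%) had a region at the most upstream start. For 327 members (36.2%) no other region lay at any start of the gene, so the internal region was the only accessible start found, and their median signal was 12.7. The 523 members without an open upstream start had a median signal of 11.5 against 10.1 for the 380 with one, a median CpG ratio of 0.711 against 0.508, and a GATA motif in 21.8% against 29.2%. A start without a called region may still be open below the threshold of the list.

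Where both starts were open, the internal one was more often the weaker, though the sides were measured by unlike rules. The upstream value was that of the strongest region overlapping the 1 kb around the most upstream start. Such a region could lie near a start of another gene, which the rule for internal regions did not allow. How far this moved the comparison was not tested. Its signal was above that of the upstream region in 138 of 380 pairs (36.3%), the medians were 10.1 at internal and 11.7 at upstream starts, and the median ratio of internal to upstream was 0.844. The ratio was within 2-fold either way in 319 pairs, over 2 in 14 and under 0.5 in 47. In the 366 pairs with all 4 replicate values, the internal start was higher in both replicates in 110, the upstream start was higher in both in 206, and the order differed between replicates in 50. The plot of internal against upstream signal shows the same cloud in both libraries, with Epb41 above the diagonal and Hdac5, Nfe2 and Uros below it.

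**Figure D1:**
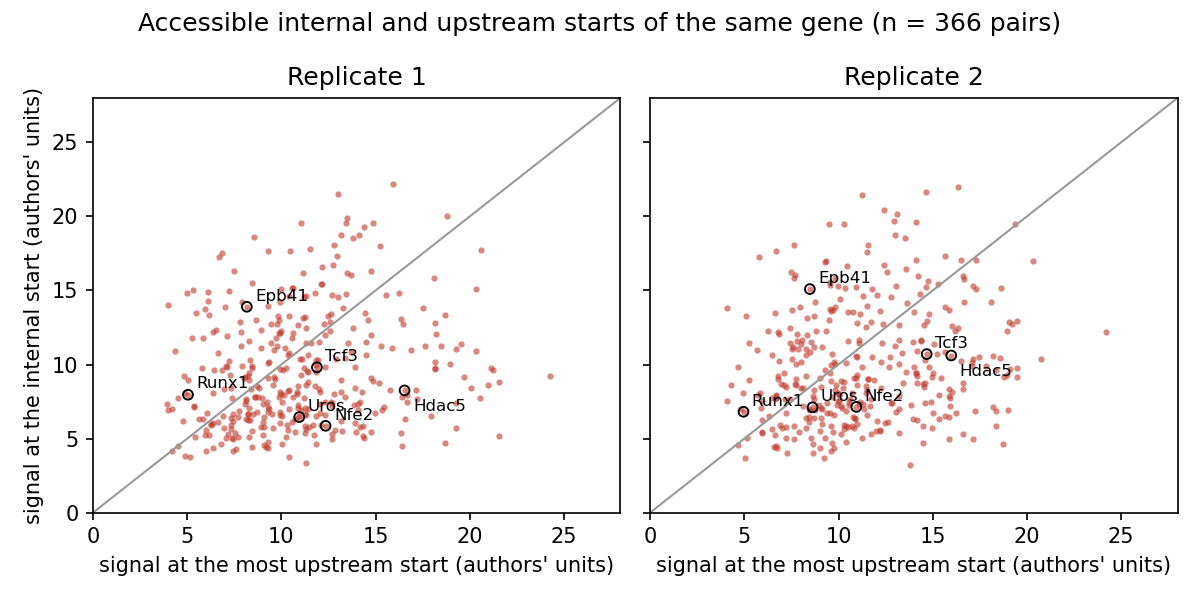
Signal (authors' units) at the internal start, y axis, against signal at the most upstream start of the same gene, x axis, for 366 pairs in replicate 1 (left) and replicate 2 (right). The grey line marks equal signal: 110 pairs lie above it in both replicates and 206 below it in both, and 6 genes named in the text are circled.

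Red cell membrane and skeleton genes had 11 internal regions at 9 of the 14 listed genes that have a clear internal start, beside 11.5% of all such genes. The list was chosen with earlier results of these data known and holds genes active in red cells, so its share is a description. Epb41, which encodes protein 4.1R and ties spectrin and actin to the membrane, had the strongest. Its internal region at chr4:132049012-132049418, 26.2 kb downstream, had 13.9 in replicate 1 and 15.1 in replicate 2, and its most upstream start had 8.17 and 8.48, so the internal start was higher in both. Add3, which encodes gamma-adducin, had 14.0 and 13.8 at a start 2.31 kb downstream and 3.98 and 4.06 at its most upstream start. Tmcc2, a transmembrane coiled-coil gene, had 14.5 and 13.5 at the internal start and 11.2 and 10.8 at the upstream start. In all 3 genes the internal start was higher in both replicates, as it was in 110 of the 366 pairs with all 4 replicate values. The region of Add3 also lay within 1 kb of a start of the same gene that is no more than 2 kb from the most upstream one. The same holds for 20 members in all, among them those of Fetub, Snrpc and Zbtb7a, the weaker one of Steap3 and the stronger one of Fth1.

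Other members of this list had no open upstream start or a stronger one. The tropomyosin genes Tpm3 and Tpm1 make their short isoforms from an internal promoter. Tpm3 had 13.2 in replicate 1 and 14.3 in replicate 2 there, Tpm1 had 7.20 and 7.53, and neither had a region at its most upstream start. Ank1, which encodes erythrocyte ankyrin, had 8.73 and 7.46 at a start 60.3 kb downstream of an upstream start without a region, and a second member 121.3 kb downstream that was called in neither own list. Add2, which encodes beta-adducin, had 6.83 and 7.37 at a start 49.4 kb downstream, and Dmtn, which encodes the actin-bundling protein dematin, had 6.26 and 7.37. Add2 and Dmtn were the members of the list with a GATA motif within 100 bp of the summit, and neither had an open upstream start. Tmcc2, with an open upstream start, held GATA motifs in the 120 bases before its internal start. Over all members a GATA motif lay around the summit in 29.2% with an open upstream start and 21.8% without. Cd47, the signal that spares a cell from phagocytosis, was ordered the other way, with 7.40 and 7.41 at the internal start and 12.7 and 12.9 at the upstream start.

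**Figure D2:**
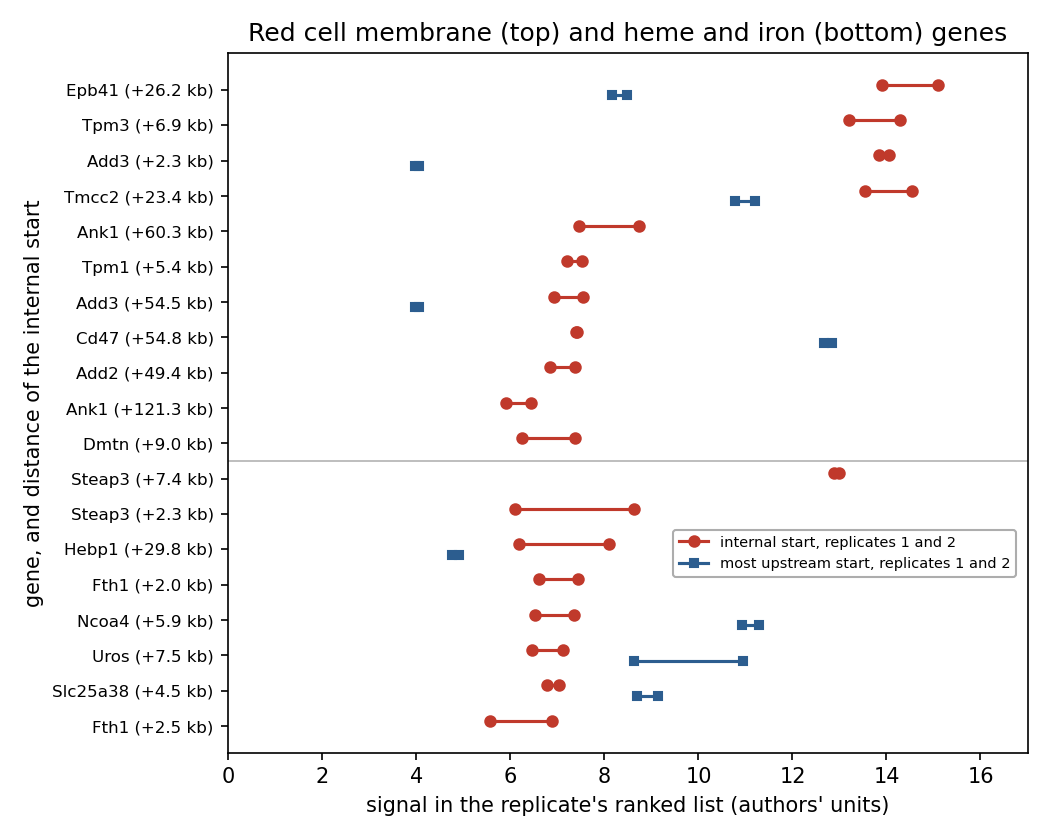
Signal (authors' units, x axis) of the internal regions of red cell membrane genes (above the line) and heme and iron genes (below it), as red circles, and of the most upstream start of the same gene where it had a region, as blue squares. Each pair of symbols joins replicates 1 and 2; Epb41, Add3 and Tmcc2 lie to the right of their upstream starts, and Cd47, Ncoa4, Uros and Slc25a38 to the left.

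Heme and iron genes had 8 internal regions at 6 of 17 genes with a clear internal start, beside 11.5% of all such genes. Their median signal was 7.43, against 10.8 over all members. Steap3, the endosomal ferrireductase that lets transferrin iron enter the cell, had the strongest, with 13.0 in replicate 1 and 12.9 in replicate 2 at a start 7.42 kb downstream, and no region at its most upstream start. At Uros the internal region, chr7:133702362-133702753, had 6.45 and 7.11 and the upstream start had 10.95 and 8.62, so the upstream start was higher in both replicates. The internal Uros transcript shares its start codon with a coding transcript that begins within 2 kb of the most upstream start. The internal region had a GATA motif and a CpG ratio of 0.379. Ncoa4, the receptor that delivers ferritin for breakdown, had 6.51 and 7.35 at the internal start and 10.9 and 11.3 upstream. Slc25a38, the mitochondrial glycine carrier, had 6.77 and 7.02 at a summit 906 bp from the internal start and 8.69 and 9.13 upstream. Hebp1, a heme-binding protein gene, went the other way with 6.18 and 8.10 at the internal start and 4.75 and 4.91 upstream. Fth1, the ferritin heavy chain gene, had 2 members of 7.50 and 6.82, at starts 2.05 and 2.52 kb downstream of a start without a region. In this list 4 of 8 members had a GATA motif, beside 24.9% of all members and 33% of all regions.

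Erythroid transcription factor and cofactor genes had 22 internal regions at 18 of 33 genes with a clear internal start, beside 11.5% of all such genes. Of the 22, 13 were called in both replicates and 8 had a GATA motif, beside 69.9% and 24.9% of all members. Nfe2l1, a relative of NF-E2, was strongest, with 18 in replicate 1 and 16 in replicate 2 at the internal start and 15.3 and 16.6 at the upstream start, values that overlapped. Tcf3 had 9.81 and 10.7 at its internal start, 11.8 kb downstream with another start codon, and 11.9 and 14.7 upstream. Lmo2, which bridges TAL1 and GATA1, had 9.62 and 12.2 at a start 11.5 kb downstream and no region upstream. Zbtb7a, a repressor of fetal globin genes, had 11.4 and 10.9, also without an upstream region. Klf3, a CACCC-binding repressor, had a member with a GATA motif of 9.42 and 9.61 and a weaker one of 5.07 and 5.04 near the same start. Rreb1, a zinc finger gene, had 3 members of 11.5, 8.85 and 6.69, and Nr3c1, the glucocorticoid receptor gene, had 2 of 9.98 and 5.16.

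Other genes of this list ranked below its first 8 by signal and were named after their values were seen. At Nfe2, the p45 subunit of NF-E2, the internal region 6.72 kb downstream had 5.86 in replicate 1 and 7.14 in replicate 2, a GATA motif and a CpG ratio of 0.0659, and the upstream start had 12.3 and 10.9. At Runx1 the proximal promoter, 128.8 kb downstream, had 7.96 and 6.81 and the distal one 5.04 and 4.96, so the CpG-rich proximal start was higher in both replicates. Spi1, which encodes PU.1, a factor that opposes GATA1, had 7.55 and 7.74 at an internal start with a GATA motif and 8.14 and 6.68 upstream. Gata1 had 6.82 and 6.13 at a start 10.2 kb downstream of an upstream start without a region, was called in the own list of replicate 2 alone and had no GATA motif within 100 bp of the summit. Tal1 (4.01) and Gata2 (4.90) were called in neither own list. Add2, Dmtn and the second member of Ank1 above were likewise named after their values were seen.

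Of the signalling list, 6 of 18 genes with a clear internal start had 11 members, beside 11.5% of all such genes with any. Grb2, an adaptor of receptor tyrosine kinases, had 13.3 in replicate 1 and 11.7 in replicate 2 at the internal start and 9.84 and 11.1 upstream. Rara, the retinoic acid receptor alpha gene with known alternative promoters, had 2 members of 15.3 and 14.8, called in both replicates, and no region at its most upstream start. Pik3r1, whose internal promoters give the short regulatory subunits of phosphoinositide 3-kinase, had 2 members 73.6 and 75.6 kb downstream, with 7.84 and 9.95 at the stronger and 8.60 and 9.58 at the upstream start. Foxp1 (7.81), Cdk6 (8.43) and Ccnd3 (5.85) gave the remaining members with a weaker one each.

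Chromatin genes had 8 members at 8 of 27 genes with a clear internal start, beside 11.5% of all such genes. Dnmt1, the maintenance DNA methyltransferase, had 18.6 in replicate 1 and 16.4 in replicate 2 at a start 6.91 kb downstream, with no other region at a start of the gene. Background knowledge places an oocyte-specific first exon of this gene apart from the somatic one. Kdm2a, known for a short form without the demethylase domain, had 16.7 and 13.9 at an internal start 64.3 kb downstream, and 12.8 and 15.7 at the upstream start, so the order differed between replicates. Kdm2b, its paralog, had 6.59 and 8.45 at a start 89.5 kb downstream and no region upstream. Hdac5, a class II histone deacetylase, had 8.25 and 10.6 at the internal start and 16.5 and 16.0 upstream. Crebbp (14.1), Brd3 (11.4), Smarca2 (9.99) and Tet3 (6.33) completed the list.

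Among genes known in textbooks for alternative promoters, 19 of 46 with a clear internal start had 25 members, beside 11.5% of all such genes with any. This list overlaps those above, so its share is not a separate result. Runx1, Nr3c1, Lmo2, Tal1, Nfe2, Gata1, Gata2, Uros, Ank1, Tpm1 and Tpm3 were counted in both. Rassf1, a tumour suppressor whose A form starts upstream and whose C form starts inside the gene, had 14.8 in replicate 1 and 17.3 in replicate 2 at a start 3.03 kb downstream, with a CpG ratio of 1.02 and no other region. Crem, known for the repressor ICER made from an internal promoter, had 11.8 and 12.8 at an internal start 56.7 kb downstream and 9.74 and 10.98 upstream. Sgk1, a serum- and glucocorticoid-induced kinase, had 10.7 and 11.5 at a start 112.5 kb downstream. Mgat1 (12.7), Sept9 (12.5) and Macf1 (12.1) followed. Of 15 genes of other blood lineages with a clear internal start, Elf1 had a member, of signal 8.01, a share of 6.67% beside 11.5% of all such genes.

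In base composition the internal promoter regions were a mixture. The median CpG ratio within 100 bp of the summit was 0.636 at internal, 0.8 at main promoter and 0.205 at intronic regions. In the own lists of the replicates, internal minus main was -0.110 and -0.120. A ratio over 0.6 was found in 53.8% of internal, 79.3% of main promoter and 3.62% of intronic regions, and a ratio under 0.4 in 272 internal regions (30.1%), 8% of main promoter and 84.9% of intronic regions. The distribution of internal regions thus runs over both ends of the scale. The 272 CpG-poor members had a median signal of 8.81, were called in both replicates in 54.0% and had an open upstream start in 55.9%. The 486 with a ratio over 0.6 had a median signal of 11.9, were called in both in 78.4% and had an open upstream start in 34.0%.

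**Figure D3:**
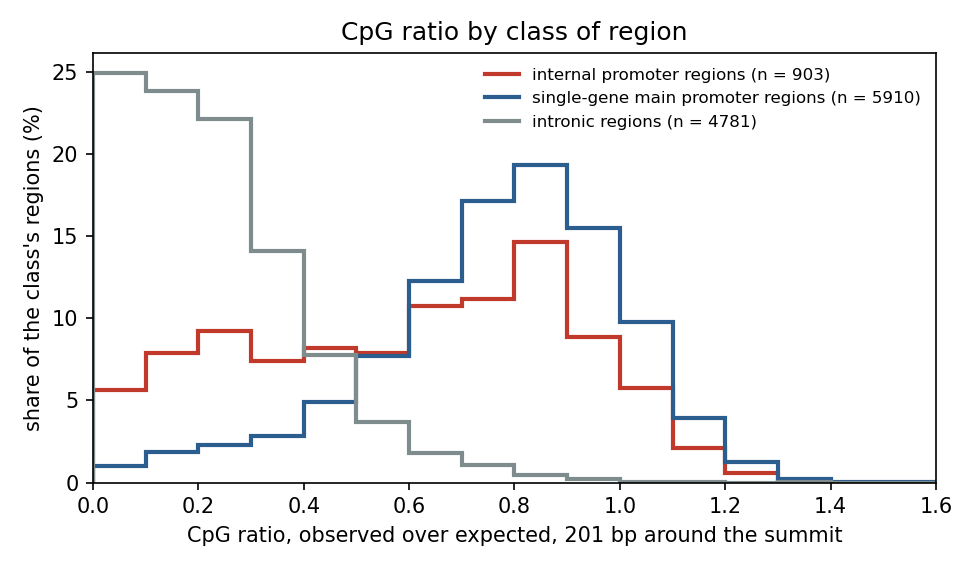
Share of each class's regions (%, y axis) by CpG ratio in steps of 0.1 (x axis), for internal promoter regions (red, n = 903), single-gene main promoter regions (blue, n = 5910) and intronic regions (grey, n = 4781). Main promoters peak above 0.6 and intronic regions below 0.4, and the internal regions spread over both, with 30.1% under 0.4 and 53.8% over 0.6.

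A GATA motif lay within 100 bp of the summit in 225 internal regions (24.9%, 22.2 to 27.8%), against 12% of main promoter regions, 57% of intronic regions and 33% of all regions. In the own lists, internal minus main was 10.5 and 10.9 percentage points in replicates 1 and 2. The share moved with CpG ratio. Under a ratio of 0.4 it was 51.8% at internal (45.9 to 57.7%), 40.8% at main promoter (36.5 to 45.3%) and 58.9% at intronic regions. Between 0.4 and 0.6 it was 22.8% and 17.8% at internal and main promoter regions, with intervals that overlapped. Over 0.6 it was 10.5% and 8.22%, with intervals that overlapped as well. The gap between internal and main promoters was thus 12.9 percentage points over all regions and smaller within each range of CpG ratio. How far base composition accounts for it was not tested.

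**Figure D4:**
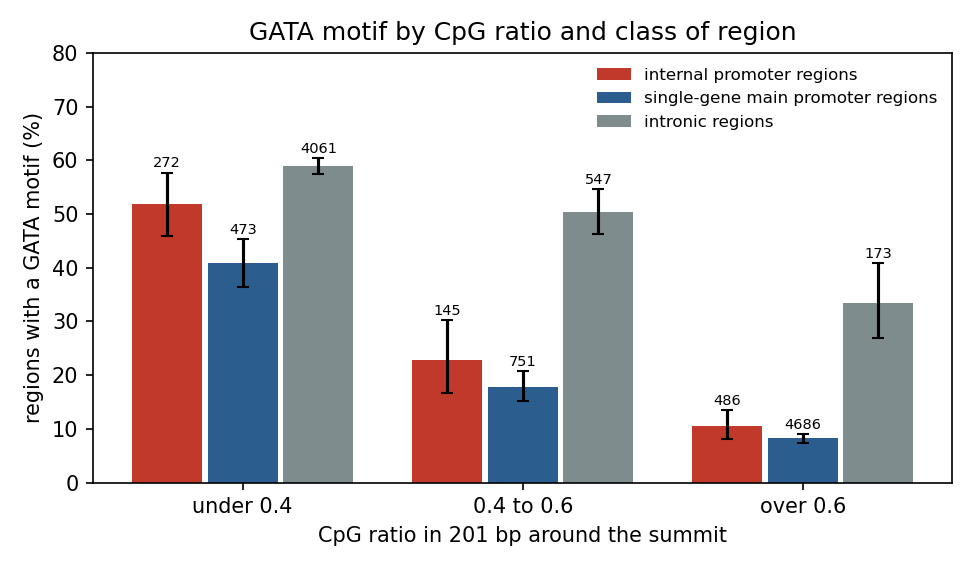
Share of regions with a GATA motif within 100 bp of the summit (%, y axis) in 3 ranges of CpG ratio (x axis), for internal promoter (red), single-gene main promoter (blue) and intronic regions (grey). Bars start at 0, error bars are 95% Wilson intervals and the numbers above them count the regions; the internal share is 51.8% under 0.4 and 10.5% over 0.6.

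The strongest CpG-poor members with a GATA motif were at Zfand4 (21.95), Pcdh1 (20.2), 1700008O03Rik (18.1) and Nfyc (17.97). Zfand4, a zinc finger gene, had 18.7 in replicate 1 and 20.1 in replicate 2 at a summit 532 bp from its internal start, and 13.2 and 13.1 at the upstream start. Pcdh1, a protocadherin gene, had 18.6 and 17.0 at the internal start and 8.53 and 9.35 upstream. In both genes, and in 1700008O03Rik with 16.2 and 16.4 against 11.1 and 13.6, the internal start was higher in both replicates. Nfyc had no region at its most upstream start. These members were picked for their large internal signal, so this order is a description of them only. Among all pairs with replicate values, the internal start was higher in both replicates in 110 of 366.

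Other motifs were searched in the same windows, 13 in all, on both strands. A GC box was held by 51.5% of internal, 62.5% of main promoter and 11.3% of intronic regions, and a CCAAT box by 29.9%, 37.4% and 21.3%. The ETS motif CCGGAA was held by 16.1% of internal, 27.3% of main promoter and 4.12% of intronic regions, and the NRF1 half-motif GCGCATG by 3.65%, 6.55% and 0.899%. The RUNX motif TGTGGT was held by 11.6% of internal, 8.41% of main promoter and 24.4% of intronic regions, and the E-box CAGCTG by 15.3%, 10.5% and 18.4%. An E-box (CANNTG) followed 6 to 9 bases later by GATA, the spacing bound by the GATA1 and TAL1 complex, was held by 25 internal regions (2.77%, 1.88 to 4.06%), against 0.778% of main promoter and 6.17% of intronic regions. The CACCC box CACACCC was held by 9.52%, 7.26% and 12.8%, the CRE core TGACGT by 8.19%, 11.8% and 3.14%, the AP-1 motif TGAGTCA by 4.65%, 2.32% and 9.29%, the TATA box TATAAA by 2.99%, 2.06% and 5.92%, and the CTCF core by 4.21%, 2.81% and 8.51% of internal, main promoter and intronic regions. For each of the 13 motifs the internal share lay between those of the main promoter and intronic regions. Over all 20080 regions a GC box was held by 36.6%, a CCAAT box by 29.9%, the ETS motif by 16.4% and NRF1 by 3.59%. The RUNX motif was held by 15.3%, CAGCTG by 14.6%, the E-box followed by GATA by 3.43% and the CACCC box by 9.62%. The CRE core was held by 7.55%, AP-1 by 6%, the TATA box by 3.93% and the CTCF core by 6.83%.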

How the data were processed

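ATAC-seq peak lists of G1E-ER4 cells, in the narrowPeak layout on mm10, were read: 7 lists in all. Signal and −log10 p per peak are the authors' deposited values, whose scaling is not stated. Classes of region and starts were compared within a list only. The ratio of replicate 1 to replicate 2 signal was taken between separate ranked lists. The authors compared replicates by irreproducible discovery rate (IDR), per the deposited file lists. Aligner, peak caller, read filters and any shift of read ends: not given in the sources used here. Their depth is unknown too. The conservative list (29337 rows) was merged into 20080 regions, each represented by its strongest summit, and set against GENCODE starts on GRCm38, with the bases read from the RefSeq assembly of that build.

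A region was called in a replicate where it overlapped a region of that replicate's own thresholded list by 50% of the shorter. Replicate signals are those of the largest summit inside the region in the replicate's ranked list. CpG ratio and 13 motifs were computed within 100 bp of the summit. Python 3.11.15, numpy 2.4.6, pandas 2.3.3 and scipy 1.17.1 were used, and the steps were tested on simulated data. Shares have 95% Wilson intervals. With 1 group of 2 replicates no test between samples was made, and the labels do not say whether the replicates came from separate cultures.

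The members, the 7 gene lists and the rules were chosen with earlier results of these data known. Named are up to 8 members per list by signal, the 8 strongest, the 6 strongest without an upstream region, the 4 strongest with a GATA motif and a CpG ratio under 0.4, those nearest the 2 kb limit, the 3 weakest, the 3 farthest downstream and genes with 3 or more members. Alternatives were another IDR list, a looser list, stronger regions only, other distances and start sites, a wider window, 1 bp overlap and each replicate's own list.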

Additional observations from a re-analysis of the deposited data

How the results depend on the processing

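Signs of the differences held under each alternative listed here. The count of 903 became 458 among regions above the median signal, and 1513 in the looser replicated list, an alternative chosen after seeing the data; 900 of those 1513 overlapped a region of the conservative list. The share of all regions, 4.50%, became 3.96% with summits within 500 bp, 3.47% over 5 kb downstream, 4.19% without start-not-found starts, 4.01% with coding upstream starts only, 5.08% with coding neighbours only and 3.26% in the looser list. The share called in both replicates, 69.9%, became 94.3% above the median signal and 73.7% within 500 bp. The share with an open upstream start, 42.1%, became 35.6% above the median signal. Above the median signal, within 500 bp, over 5 kb downstream and with coding upstream starts, the signal difference of -2.43 became -0.74, -2.12, -2.07 and -2.76. In the same 4 settings the CpG difference of -0.164 became -0.0893, -0.126, -0.178 and -0.195, and it was -0.138 without start-not-found starts, -0.154 with coding neighbours and -0.154 in windows of 200 bp on either side. The GATA difference of 12.9 percentage points became 10.5 above the median signal, 10.3 within 500 bp, 11.9 without start-not-found starts, 13.4 with coding upstream starts and 11.6 with coding neighbours. With 1 replicate left out, the other's own list gave counts of 699 to 755, shares of 4.85 to 4.99%, open upstream starts in 34.3 to 37.4%, signal differences of -1.82 to -1.40, CpG differences of -0.120 to -0.110 and GATA differences of 10.5 to 10.9 points. The causes were not tested. No paired analysis was possible because there is only 1 group. Read depth is unknown, so a start without a region may be open below the calling threshold.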
